A study of Mus musculus with 27 samples.

Results

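Regenerating liver of mice given etomoxir was compared with liver of sham-operated mice. The comparison covers 9 of the 27 liver libraries of the series, chosen by their group labels: 4 libraries labelled PHx48_ETO and 5 labelled sham. All mice were wild-type C57/BL6J, and polyadenylated RNA of liver tissue was sequenced. PHx48_ETO mice underwent 70% partial hepatectomy and were sampled 48 h later; etomoxir was injected intraperitoneally, 12.5 mg/kg each time, first 4 h ahead of the resection and then 24 h after it. Sham mice had the operation without resection and no etomoxir, and their liver counts as the 0 h time. Whether sham mice received a vehicle, how long after the operation they were sampled, and the age and sex of the mice are not stated in the labels. Resection, time and etomoxir all differ between these groups, so their parts in any difference below cannot be told apart. The nearest other groups are PHx48 (7 libraries, the same resection and time without etomoxir) and PHx24_ETO (4 libraries, 24 h after resection with the first dose only). They serve to test where PHx48_ETO differs. All 5 groups also share the estimate of spread and the filter on low genes. With sham and PHx48_ETO alone in the fit, but the filter unchanged, 3099 genes were called in place of 3655. Nothing in the labels ties a library to its own animal; the p-values rest on the spread from library to library, which may be technical.

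After part of the liver is removed, hepatocytes that are normally quiescent leave G0, replicate their DNA and divide, while the remaining tissue keeps up its metabolic work. Etomoxir irreversibly inhibits carnitine palmitoyltransferase 1, the enzyme of the outer mitochondrial membrane that commits long-chain fatty acids to mitochondrial oxidation. Fatty acids that are not oxidised can serve as ligands of the nuclear receptor PPARA, which switches on genes of fatty acid oxidation in peroxisomes, microsomes and mitochondria.

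Levels are given as FPKM, the read count divided by gene length and by the library size that the authors used. Fold changes, SE and adjusted p are from edgeR's quasi-likelihood test on the raw counts, a gene is called at an adjusted p under 0.05, and "rose" and "fell" are written only of called genes. Of 54532 genes in the table, 12376 reached 1 FPKM or more in at least 4 of the 27 libraries and were tested. A gene can pass that filter through the group in which it is high, so counts over tested genes are not counts over all listed genes.

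The libraries held 14903757 to 18446372 counts, and albumin mRNA, the defining product of hepatocytes, ranged from 15799 to 41609.7 FPKM in sham and from 24667 to 31855 FPKM in PHx48_ETO. The albumin gene Alb did not pass the test between the groups (log2 fold change 0.14 ± 0.25 SE, adjusted p = 0.723). Of 16 tested hepatocyte markers, however, 6 fell (Cyp2e1, Apoh, Ttr, Serpina1c, Apoa1 and Rbp4; 37.5%, against 13.3% of all genes tested) and none rose; 4 to 8 fell with 1 library left out, and on the TPM scale 4 fell and 3 rose. Some libraries also held transcripts of other tissues. The summed level of 12 skeletal muscle markers was 4995 FPKM in sham 1, 77.8 FPKM in sham 2, 91.8 FPKM in PHx48_ETO 4, 11.7 FPKM in PHx48_ETO 1 and at most 3.46 FPKM in the other 5 libraries. Sham 2 stood apart in exocrine pancreas (1178 FPKM against at most 35 FPKM elsewhere), cholangiocyte (1156 FPKM against at most 61.6 FPKM) and B cell markers (321 FPKM against at most 15 FPKM), and sham 1 in adipocyte markers (240.3 FPKM). Of the 4 tested pancreas markers, all 4 fell in PHx48_ETO; 1 did without sham 2 and 2 without any 1 of the PHx48_ETO libraries. In bulk tissue, fewer cells of a type and less RNA per cell cannot be told apart. Of 7 tested adipocyte markers 3 fell, a count that ranged from 1 to 6 with 1 library left out at a time; it was 1 without sham 1 or any 1 of the PHx48_ETO libraries, 5 without sham 4 and 6 without sham 5. Most counts below are therefore also given without sham 1, sham 2 and the 2 libraries of other groups with such transcripts (PHx24 1 and PHx48 3); PHx48_ETO 4 was kept there, although its muscle markers exceeded those of sham 2. PHx48_ETO 4 also stood apart: on the first principal component of the 9 libraries, which held 48.7% of their variance, it lay at 20.99, against 35.27 to 42.79 for the other PHx48_ETO libraries and -37.35 to -21.45 for sham.

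**Figure D1:**
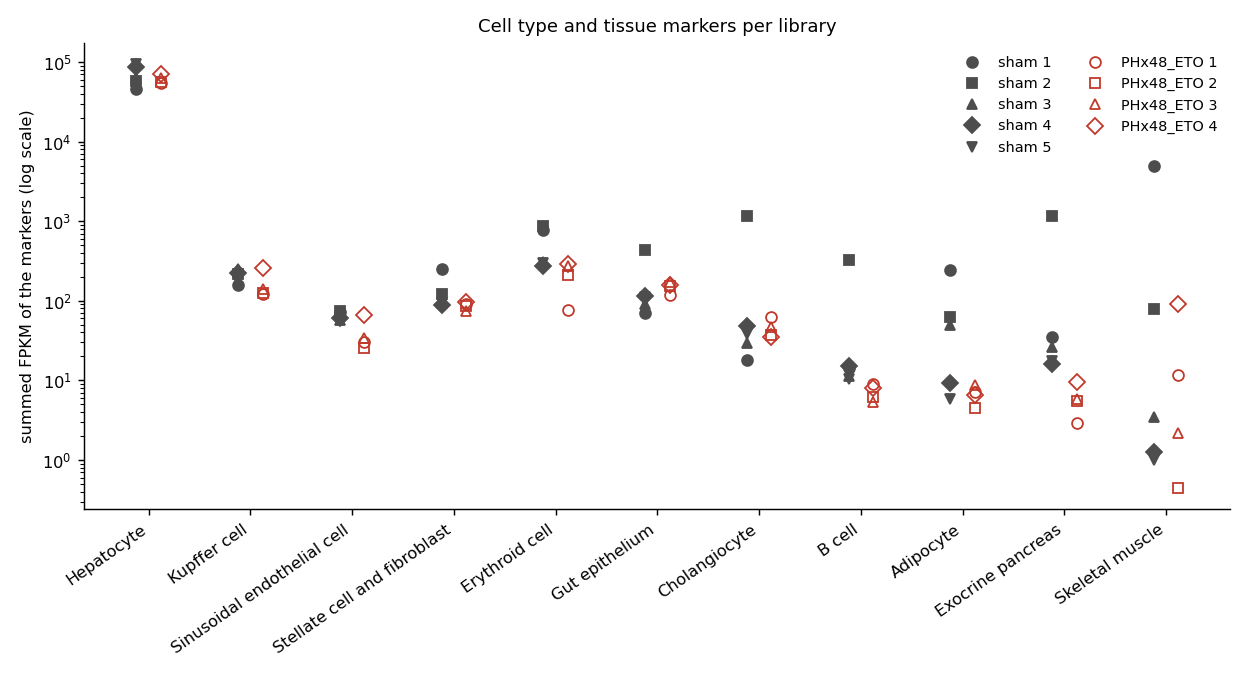
Summed FPKM of cell type and tissue markers (log scale) in each of the 5 sham (filled) and 4 PHx48_ETO (open) libraries. Hepatocyte markers are the highest sums in all 9 libraries, whereas sham 1 is high in skeletal muscle (4995 FPKM), sham 2 in pancreas (1178 FPKM) and cholangiocyte markers (1156 FPKM), and PHx48_ETO 4 lies with sham in sinusoidal endothelial markers (65.4 FPKM).

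Of the 12376 genes tested, 3655 were called between PHx48_ETO and sham (29.5%): 2004 were higher in PHx48_ETO (16.2%) and 1651 lower (13.3%). At least 2-fold changes were found for 697 of the genes called higher and 509 of those called lower. The ranges of the 4 and the 5 libraries did not overlap for 2735 genes (22.1%). The median log2 fold change of all genes was 0.009. With library totals in place of TMM factors that median was 0.20 and 78.9% of the calls were higher, against 54.8% in the main fit; with TPM it was 0.27 and 86.7%. Without the 4 libraries that held other tissues, 1484 genes were higher and 1308 lower.

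**Figure D2:**
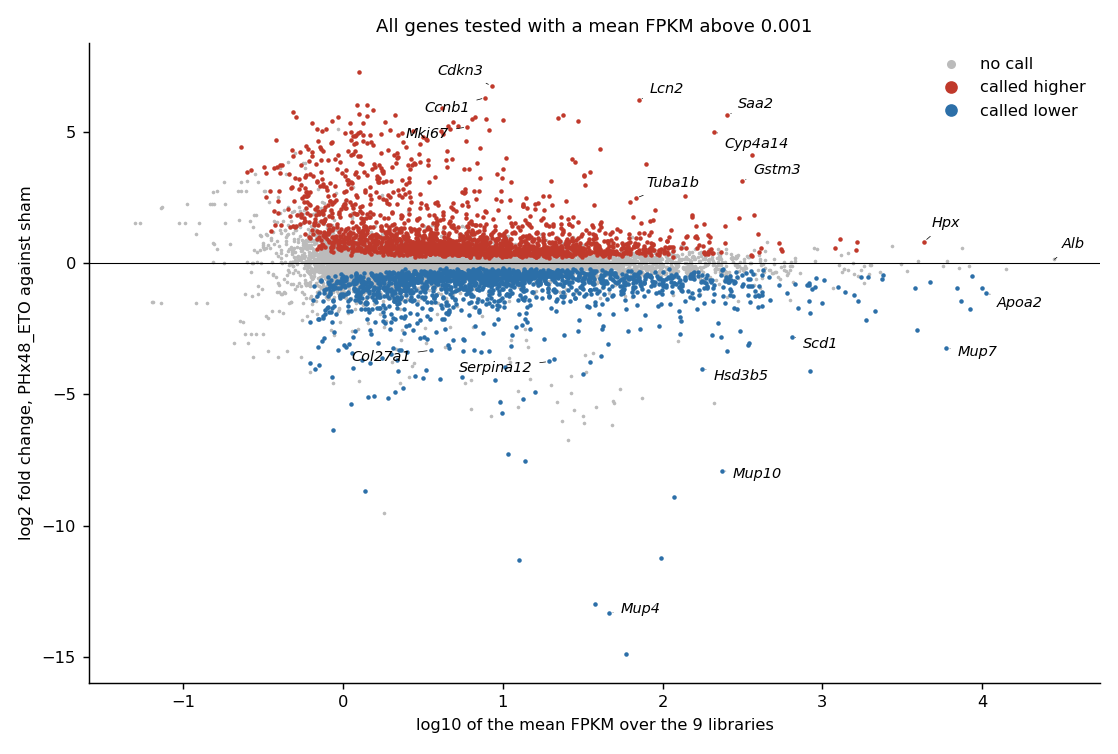
Log2 fold change of PHx48_ETO against sham for each gene tested with a mean FPKM above 0.001, by the log10 of its mean FPKM over the 9 libraries; the position of genes without reads in a group, such as Mup4, depends on the prior count of the fit. Red points are the 2004 genes called higher, blue points the 1651 called lower, and grey points have no call; labelled genes are described in the text.

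Genes of mitosis had the highest median log2 fold change of the 39 pathway lists examined. Of 49 tested genes of mitosis (50 listed), 48 rose and 1 fell, with a median log2 fold change of 4.64, against 16.2% of all genes tested that rose. Ccnb1 encodes cyclin B1, the cyclin that drives entry into mitosis. Its level was 0.14, 0.131, 0.0978, 0.549 and 0.217 FPKM in sham 1 to 5 and 17.2, 15.9, 26.8 and 9.1 FPKM in PHx48_ETO 1 to 4. Every PHx48_ETO library lay above every sham library, by 6.29 ± 0.79 on the log2 scale (SE, adjusted p = 2.34e-06). The phosphatase gene Cdkn3, which acts on cyclin-dependent kinases, went from 0.175 ± 0.11 FPKM (SD, n = 5) to 19 ± 6.71 FPKM (SD, n = 4), the largest rise among protein-coding genes with a mean of at least 5 FPKM and no overlap (log2 fold change 6.74 ± 0.47, adjusted p = 3.49e-10). Mki67, the proliferation antigen Ki-67, had 0.388, 0.267, 0.369, 0.529 and 0.258 FPKM in sham and 11.1, 12.1, 17.4 and 11.5 FPKM in PHx48_ETO (log2 fold change 5.18 ± 0.71, adjusted p = 6.03e-06). The groups did not overlap in any of these genes, and PHx48_ETO 3 was the highest library in all 3.

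Others of the strongest rises belong to the same machinery. Cdc20 and Ube2c, parts of the anaphase-promoting ubiquitin system, rose by 5.40 ± 0.68 and 5.44 ± 0.66 on the log2 scale. Birc5 (survivin, of the chromosomal passenger complex) rose by 5.48 ± 0.67, Hmmr (a spindle protein) by 5.90 ± 0.83 and Pbk (a mitotic kinase) by 5.49 ± 0.73. Cdk1, the mitotic kinase itself, went from 0.514 ± 0.317 to 12.6 ± 3.55 FPKM (SD; log2 fold change 4.64 ± 0.63, adjusted p = 5.78e-06), and Foxm1, a transcription factor of G2/M genes, from 0.166 ± 0.126 to 4.8 ± 0.685 FPKM (log2 fold change 4.86 ± 0.65, adjusted p = 4.65e-06). The 1 member that fell was Pttg1 (securin), from 17 ± 1.21 to 12.5 ± 3.4 FPKM (log2 fold change -0.44 ± 0.16, adjusted p = 0.0444); its ranges overlapped, and the call was lost without sham 1, sham 2, sham 4, PHx48_ETO 1 or PHx48_ETO 2. The count of 48 was 47 or 48 with any 1 library left out, and 48 without the 4 libraries with other tissues.

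Since the mitosis genes rose together, their promoters were read (RefSeq, build GRCm38.p6, from 250 bases before the start site to 50 after it). The 2 elements searched are known from promoters of G2/M genes: the CCAAT box, and the cell cycle homology region, CHR, as TTTGAA or TTCGAA, both read on either strand. Of 43 promoters of 41 mitosis genes, 33 held CCAAT (76.7%) and 33 held a CHR (76.7%), and 29 held both (67.4%). Over all 32851 promoters the shares were 37.4%, 19.2% and 7.52%, and over the 11118 promoters of tested genes 38.1%, 14.1% and 5.81%. In the 34 promoters of 30 DNA replication genes they were 55.9%, 17.6% and 14.7%. The promoter of Ccnb1 held CCAAT but no CHR, and that of Birc5 held neither. The promoters of 2 genes with both are shown, with CCAAT and CHR in capitals. That of Ccnb2 (cyclin B2, chr9:70421505-70421804, minus strand) has CCAAT 87, 54 and 21 bases before the start site and a CHR 167 bases before and 4 bases after it. That of Cdc20 (chr4:118437294-118437593, minus strand) has CCAAT 53 and 8 bases before the start site and its CHR element lies 18 bases before it.
Ccnb2: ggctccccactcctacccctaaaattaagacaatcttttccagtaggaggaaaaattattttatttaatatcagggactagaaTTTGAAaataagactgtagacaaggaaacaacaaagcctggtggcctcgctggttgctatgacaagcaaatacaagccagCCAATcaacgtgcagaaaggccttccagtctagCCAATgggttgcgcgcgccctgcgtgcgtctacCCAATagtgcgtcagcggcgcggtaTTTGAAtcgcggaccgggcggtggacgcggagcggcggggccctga
Cdc20: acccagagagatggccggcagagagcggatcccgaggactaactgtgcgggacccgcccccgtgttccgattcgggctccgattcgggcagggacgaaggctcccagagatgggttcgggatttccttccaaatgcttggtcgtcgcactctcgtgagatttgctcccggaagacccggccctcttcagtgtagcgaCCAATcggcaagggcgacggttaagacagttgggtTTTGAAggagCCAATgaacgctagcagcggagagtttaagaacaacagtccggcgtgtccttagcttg
Ccnb2 mRNA was 0.888, 0.946, 1.03, 1.66 and 0.797 FPKM in sham and 47.6, 50.3, 67.4 and 30.1 FPKM in PHx48_ETO (log2 fold change 5.53 ± 0.57, adjusted p = 1.79e-07). Cdc20 mRNA was 0.728, 0.812, 1.14, 4.25 and 0.939 FPKM in sham and 61.1, 62.9, 89.3 and 46.1 FPKM in PHx48_ETO, without overlap; its exons overlap those of Elovl1, so the genes can share reads. A match of letters is a description and not a shown binding site.

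Genes of DNA replication also rose as a list, with a lower median. Of 37 tested (38 listed), 33 rose and 1 fell, with a median log2 fold change of 1.77. Mcm5, a subunit of the replicative helicase, had 1.07, 0.864, 1.38, 0.927 and 0.592 FPKM in sham and 13.1, 8.38, 15.1 and 10 FPKM in PHx48_ETO, without overlap (log2 fold change 3.59 ± 0.50, adjusted p = 7.48e-06). Mcm6, another subunit, went from 1.67 ± 0.356 to 10.9 ± 2.95 FPKM (log2 fold change 2.71 ± 0.44, adjusted p = 5.28e-05). Gins2, of the complex that activates the helicase, rose by 3.65 on the log2 scale, and Chaf1a, which places histones on new DNA, by 3.19. Mcm10, a replication initiation factor, went the other way: 9.43, 15.2, 17.8, 7.8 and 16.7 FPKM in sham and 2.74, 4.36, 2.51 and 6.12 FPKM in PHx48_ETO, without overlap (log2 fold change -1.75 ± 0.55, adjusted p = 0.0188). That call was lost without PHx48_ETO 1 or PHx48_ETO 3. The rises numbered 28 to 32 with 1 library left out at a time and 26 without the 4 libraries with other tissues.

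E2F factors act on replication genes, and their elements TTTGGCGC, TTTCCCGC and TTTCGCGC were searched on both strands. They stood in 13 of 34 promoters of 30 replication genes (38.2%), against 1.84% of all promoters and 3.46% of those of tested genes; in the mitosis promoters they stood in 3 of 43 (6.98%). The promoters of 2 genes with overlapping pairs of elements are shown, with the elements in capitals. Mcm6 (chr1:128359656-128359955, minus strand) has them 110, 106 and 47 bases before the start site, and Mcm5 (chr8:75109259-75109558, plus strand) 153 and 149 bases before it.
Mcm6: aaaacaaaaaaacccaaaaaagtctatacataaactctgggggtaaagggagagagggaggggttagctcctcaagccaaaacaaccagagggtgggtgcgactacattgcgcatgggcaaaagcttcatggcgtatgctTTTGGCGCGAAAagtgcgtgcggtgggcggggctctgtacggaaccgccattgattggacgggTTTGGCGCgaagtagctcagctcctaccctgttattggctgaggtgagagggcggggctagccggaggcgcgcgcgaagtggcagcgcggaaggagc
Mcm5: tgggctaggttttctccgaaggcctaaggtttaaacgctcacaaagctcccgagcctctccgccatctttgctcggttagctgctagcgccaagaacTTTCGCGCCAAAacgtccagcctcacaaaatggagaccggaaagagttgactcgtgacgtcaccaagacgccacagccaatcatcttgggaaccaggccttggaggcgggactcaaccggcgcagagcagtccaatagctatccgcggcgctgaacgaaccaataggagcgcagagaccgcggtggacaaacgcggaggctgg

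Other lists of the dividing cell rose in part. Of 20 tested G1/S regulators 12 rose and 1 fell, with a median of 0.79. Ccnd1 (cyclin D1, which starts the passage through G1) had 2.37, 2.18, 8.29, 6.03 and 4.91 FPKM in sham and 41.9, 23.8, 24.7 and 12.2 FPKM in PHx48_ETO (log2 fold change 2.46 ± 0.36, adjusted p = 1.37e-05); its exons overlap those of Oraov1. The gene that fell was Rb1, the retinoblastoma protein, from 1.69 ± 0.254 to 1.11 ± 0.216 FPKM (adjusted p = 0.00468, not called without the 4 libraries with other tissues), and the count of falls was 2 without sham 3 or sham 5. Of 23 tested genes of nucleotide synthesis 10 rose and none fell; 1 fell without PHx48_ETO 4 and with the 2 groups alone. Rrm2, the inducible subunit of ribonucleotide reductase, went from 1.82 ± 0.921 to 18.4 ± 5.21 FPKM (log2 fold change 3.37 ± 0.57, adjusted p = 7.39e-05). Without the 4 libraries that held other tissues, 10 G1/S regulators and 7 genes of nucleotide synthesis rose. Myc, a growth regulator that rises early after resection, did not pass the test (2.76 ± 2.22 and 3.2 ± 0.751 FPKM, adjusted p = 0.78).

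Tubulin and cytoskeleton genes rose in 17 of 26 cases, with a median log2 fold change of 1.25 and 16 to 18 rises with 1 library left out. None fell; 1 did without sham 3, with DESeq2 and with upper-quartile factors. Tuba1b, an alpha-tubulin of the spindle and cytoskeleton, had 21.7, 25.8, 21.4, 21.9 and 23.3 FPKM in sham and 119.7, 119, 153 and 108 FPKM in PHx48_ETO (log2 fold change 2.46 ± 0.18, adjusted p = 4.06e-10). The narrow sham range and the 4 high PHx48_ETO values left a wide gap between the groups. Stmn1 (stathmin, which destabilises microtubules) went from 4.35 ± 0.975 to 86.2 ± 10.1 FPKM. The hepatocyte keratin Krt8 went from 177 ± 44.5 to 622 ± 152 FPKM and its partner Krt18 from 151 ± 17.5 to 494 ± 132 FPKM (adjusted p = 0.000421 and 7.26e-05). Of 17 tested p53 targets 11 rose and none fell, with a median of 1.18. Cdkn1a, the cyclin-dependent kinase inhibitor p21, had 5.87, 7.9, 3.35, 4.93 and 3.93 FPKM in sham and 26.9, 21, 25.1 and 21.1 FPKM in PHx48_ETO (log2 fold change 2.18 ± 0.34, adjusted p = 3.31e-05). Mdm2, the ubiquitin ligase of p53, went from 6.11 ± 0.418 to 11.6 ± 1.12 FPKM (adjusted p = 4.04e-07). Gtse1, another member, is itself a G2 gene and rose by 3.75 ± 0.49 on the log2 scale. Ribosome biogenesis genes rose in 8 of 29 cases, a count that was 3 to 5 without any 1 of sham 1 to 4 or PHx48_ETO 1 to 3, 2 without the 4 libraries with other tissues and 20 on the TPM scale.

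**Figure D3:**
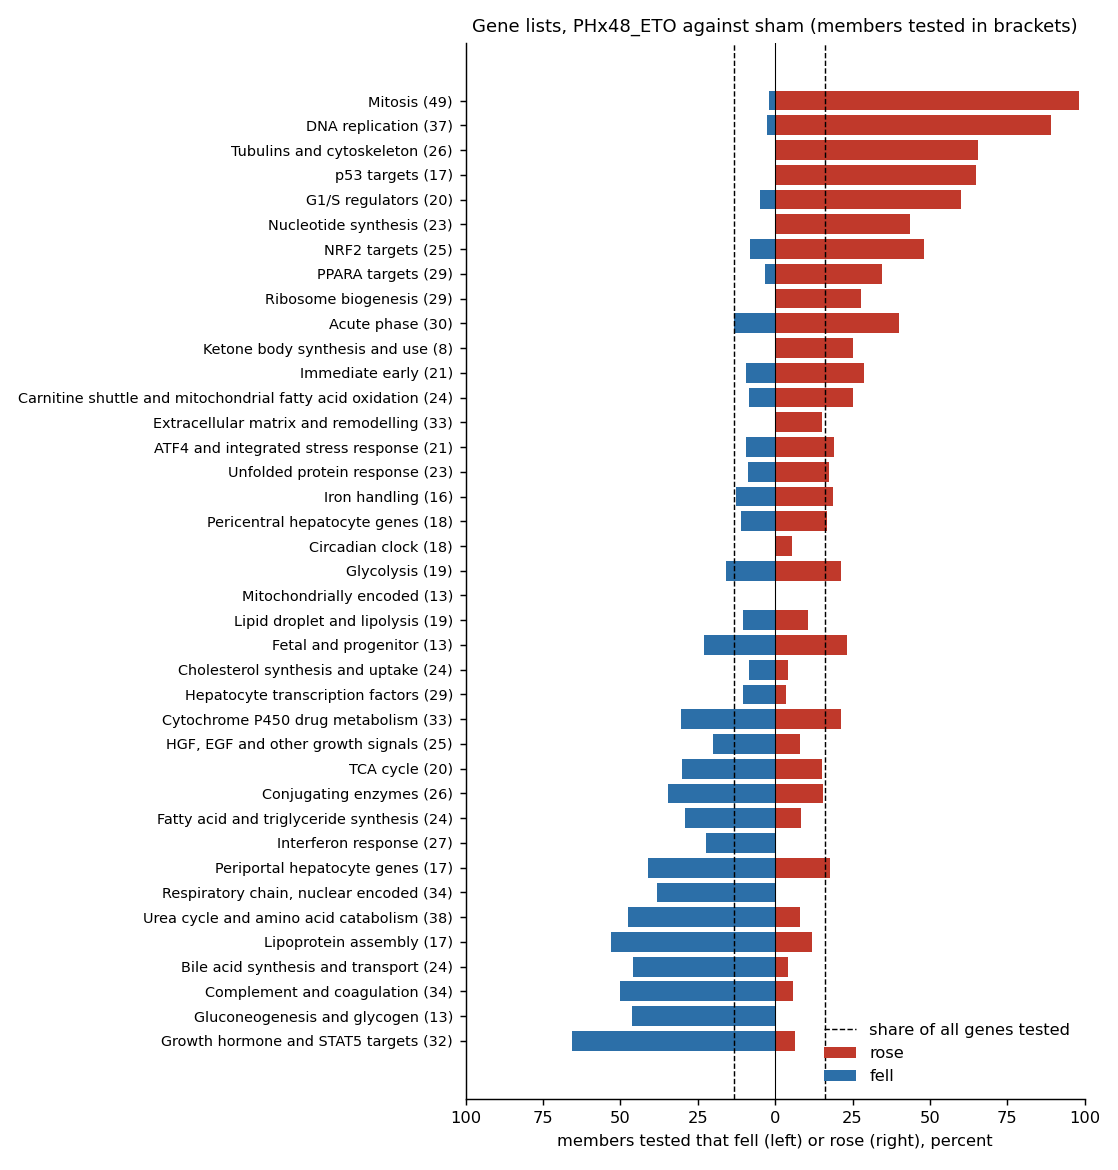
Share of the tested members of each pathway list that fell (blue, left) or rose (red, right) in PHx48_ETO against sham, in percent, with the number tested in brackets. Dashed lines are the shares of all genes tested (13.3% fell, 16.2% rose); mitosis and DNA replication lie farthest to the right and growth hormone and STAT5 targets farthest to the left.

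Acute phase and complement genes, both made by hepatocytes, moved apart. Of 30 tested acute phase genes (31 listed) 12 rose and 4 fell, with a median of 0.44. Lcn2 (lipocalin 2, which binds bacterial iron carriers) had 1.31, 1.39, 2.93, 3.5 and 1.69 FPKM in sham and 119, 134, 259.8 and 115 FPKM in PHx48_ETO, without overlap (log2 fold change 6.20 ± 0.42, adjusted p = 2.3e-10). The serum amyloid genes Saa2 and Saa1, which are close copies and can share reads, went from 11.4 ± 8.78 to 559 ± 189.8 FPKM and from 44.4 ± 33.7 to 756 ± 238 FPKM (adjusted p = 9.22e-08 and 6.36e-07). Hpx, the heme carrier hemopexin, rose by 0.80 ± 0.26 on the log2 scale (adjusted p = 0.0232), but its call was lost without sham 1, sham 2, PHx48_ETO 2 or PHx48_ETO 3. The acute phase rises numbered 9 to 14 with 1 library left out and 7 without the 4 libraries with other tissues; the 4 falls became 2 without sham 2, sham 3, PHx48_ETO 1, PHx48_ETO 2 or PHx48_ETO 3.

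Of 34 tested complement and coagulation genes (35 listed) 17 fell and 2 rose, with a median of -0.45. The falls numbered 14 to 18 with 1 library left out and 16 without the 4 libraries with other tissues. With TPM 10 fell and 4 rose. F12 (coagulation factor XII) fell by 0.66, C2 (complement component 2) by 1.08 and C1ra (a protease that starts the classical pathway) by 0.73 on the log2 scale, each without overlap. C3, the central complement protein, was 1 of the 2 rises (996 ± 142 and 1455 ± 197 FPKM, adjusted p = 0.0284), and that call was lost without sham 1, sham 4, sham 5, PHx48_ETO 1, PHx48_ETO 2 or PHx48_ETO 3.

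Targets of growth hormone and its factor STAT5 had the largest share of falls among the 39 pathway lists. Of 32 tested (35 listed) 21 fell and 2 rose, with a median of -1.43; the falls numbered 20 to 22 with 1 library left out and 23 without the 4 libraries with other tissues. Mup7, a major urinary protein that male mice excrete as a pheromone carrier, had 8531, 12512, 8167, 11015 and 9479 FPKM in sham and 864, 1234, 938 and 1103 FPKM in PHx48_ETO, without overlap (log2 fold change -3.25 ± 0.50, adjusted p = 2.68e-05). Mup3 went from 12169.5 ± 3526 to 3577 ± 1264 FPKM (adjusted p = 2.54e-05). The Mup genes are near-identical copies, so the value of any 1 of them is uncertain. Mup4 had 1.41, 233, 121, 63.2 and 0.579 FPKM in sham, and no read in any PHx48_ETO library. Against a floor of 3 counts over the 4 PHx48_ETO libraries its sham mean was at least 1828-fold higher, or at least 1016-fold higher without sham 2. Mup10 ranged from 2.36 to 1324 FPKM within sham and from 1.23 to 2.24 FPKM in PHx48_ETO, so sham libraries differed from each other by far more than the narrowest gap between the groups.

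Members outside the Mup family fell as well. Hsd3b5, a male-specific steroid enzyme, had 226, 280.1, 302, 310.4 and 405 FPKM in sham and 4.86, 21.6, 10.6 and 36.5 FPKM in PHx48_ETO (log2 fold change -4.03 ± 0.88, adjusted p = 0.00107). Serpina12 (vaspin, a serpin) went from 33.2 ± 11.7 to 2.43 ± 1.11 FPKM (adjusted p = 2.83e-06). The growth hormone receptor Ghr went from 65.7 ± 10.7 to 26.8 ± 6.25 FPKM without overlap (log2 fold change -1.28 ± 0.28, adjusted p = 0.0012). Igf1, another member of the list, went from 67.7 ± 16.9 to 45.1 ± 7.15 FPKM with overlap (adjusted p = 0.00668). The 2 that rose, Cyp2a4 and Cyp2b9, are cytochromes higher in female liver. Cyp2a4 had 0.34, 0, 0.356, 0 and 0.834 FPKM in sham and 14.3, 3.71, 3.72 and 14.8 FPKM in PHx48_ETO (log2 fold change 4.91 ± 0.96, adjusted p = 0.000393). The Cyp2b9 call (adjusted p = 0.0112) was lost without the 4 libraries with other tissues. Col27a1, a fibrillar collagen gene outside the list, fell with the smallest spread among the strongest falls: 6.82, 6.17, 5.66, 7.16 and 3.73 FPKM in sham and 0.495, 0.612, 0.566 and 0.671 FPKM in PHx48_ETO (log2 fold change -3.33 ± 0.23, adjusted p = 2.3e-10). Elovl3 and Pitx3 overlap in their exons and both fell (log2 fold change -3.13 and -3.97), so the 2 values may not be independent. Hamp2, a copy of the iron hormone hepcidin, fell by 4.24 on the log2 scale (adjusted p = 0.00225), while Hamp itself did not pass the test (1489 ± 579.8 and 751 ± 117 FPKM, adjusted p = 0.233).

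**Figure D4:**
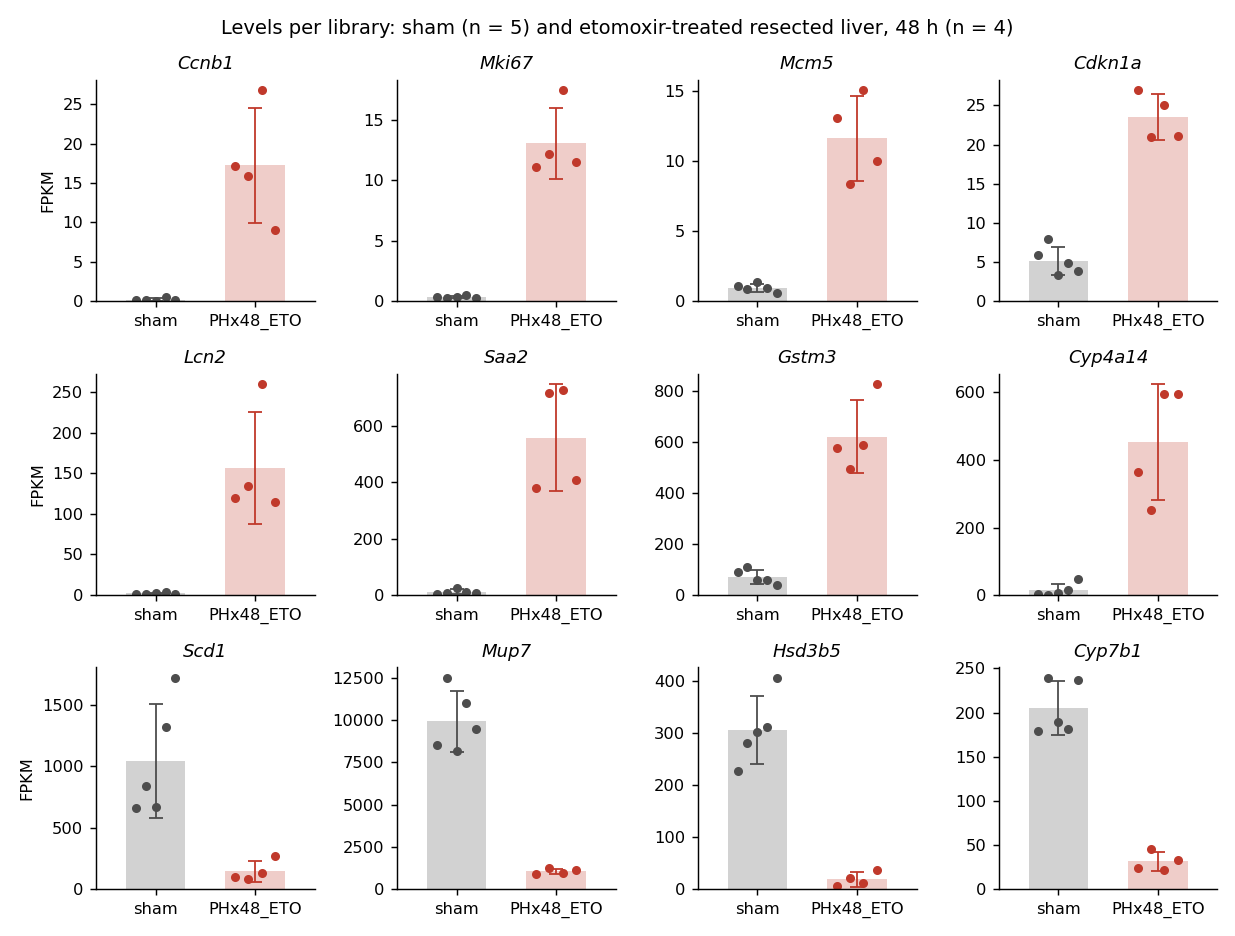
FPKM of 12 genes in each sham (grey, n = 5) and PHx48_ETO library (red, n = 4), with bars at the mean and error bars of 1 SD. The groups do not overlap in any of the 12; Ccnb1 goes from at most 0.549 FPKM in sham to at least 9.1 FPKM, and Mup7 from at least 8167 FPKM in sham to at most 1234 FPKM.

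Among genes of fatty acid oxidation, the target of etomoxir did not pass the test. Cpt1a, the liver form of carnitine palmitoyltransferase 1, had 46.2, 54.4, 76.3, 53.3 and 90.9 FPKM in sham and 93, 66.9, 51.8 and 59.1 FPKM in PHx48_ETO (log2 fold change 0.10 ± 0.18, adjusted p = 0.722). The ranges lay over each other almost entirely. Etomoxir acts on the enzyme, so this level does not check the treatment. Cpt2, the partner enzyme of the inner membrane (72.2 ± 9.06 and 82.3 ± 9.27 FPKM, adjusted p = 0.251), and Slc25a20, which carries acylcarnitines across that membrane (23.1 ± 4.44 and 25.2 ± 3.3 FPKM, adjusted p = 0.411), did not pass either. Cpt1b, the muscle form, is not among the tested genes. Of 24 tested genes of the carnitine shuttle and mitochondrial fatty acid oxidation (26 listed) 6 rose and 2 fell, with a median of 0.24. Of all genes tested, 16.2% rose and 13.3% fell. The rises in the list numbered 4 to 7 with 1 library left out. They numbered 4 without the 4 libraries that held other tissues, where 1484 of all 12376 genes rose. On the TPM scale 15 of the 24 rose, but so did 4267 of all 12376 genes. Acadm, medium-chain acyl-CoA dehydrogenase, had 79.7, 61.5, 66.1, 77.7 and 96.9 FPKM in sham and 146, 130.3, 175 and 148 FPKM in PHx48_ETO, without overlap (log2 fold change 0.99 ± 0.14, adjusted p = 6.25e-06). Acadl, the long-chain dehydrogenase, rose by 0.60 on the log2 scale and Acsl4, an acyl-CoA synthetase, by 0.90. Acsl1, the main synthetase of liver, was 1 of the 2 falls (92.9 ± 30.1 and 49.7 ± 7.94 FPKM, adjusted p = 0.0172); both falls were lost without sham 5 or PHx48_ETO 2, and 1 was without sham 4, PHx48_ETO 1 or PHx48_ETO 3.

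PPARA targets split. Of 29 tested (32 listed) 10 rose and 1 fell (Slc27a1, not called without sham 1, PHx48_ETO 1, PHx48_ETO 2 or PHx48_ETO 3); the median was -0.10, but 0.095 with library totals, 0.48 on the TPM scale and 0.19 without the 4 libraries that held other tissues, where 13 rose. The rises were Cyp4a10, Cyp4a14 and Cyp4a31 of omega-oxidation, the thioesterases Acot1, Acot2, Acot3 and Acot4, Ehhadh, Vnn1 and Ucp2, a mitochondrial carrier. Cyp4a14, a fatty acid omega-hydroxylase, had 2.86, 0.822, 6.92, 15.5 and 47.6 FPKM in sham and 365, 252, 596 and 595 FPKM in PHx48_ETO (log2 fold change 4.99 ± 0.77, adjusted p = 2.42e-05). Its copy Cyp4a10 had 8.46, 7.88, 24.4, 68.6 and 118 FPKM in sham and 194, 177, 301 and 344 FPKM in PHx48_ETO (log2 fold change 2.53 ± 0.55, adjusted p = 0.00109). Sham libraries spread widely in both, with sham 5 highest, yet no sham library reached a PHx48_ETO library. The Cyp4a genes can share reads. Acot2, a mitochondrial acyl-CoA thioesterase, went from 1.55 ± 0.864 to 14.4 ± 3.86 FPKM, and Acot3, a peroxisomal one, from 0.194 ± 0.166 to 2.65 ± 1.11 FPKM (adjusted p = 9.99e-05 and 1.91e-05). Vnn1 (pantetheinase) went from 9.04 ± 4.61 to 27.8 ± 3.43 FPKM without overlap (adjusted p = 0.00016). Ehhadh, the peroxisomal bifunctional enzyme, went from 94.3 ± 50.5 to 247 ± 52.8 FPKM, with sham 5 and PHx48_ETO 2 both at 172 FPKM (adjusted p = 0.00347). Other targets did not pass, among them Pdk4, which blocks pyruvate dehydrogenase (14.9 ± 26.7 and 13.3 ± 9.36 FPKM, with 62.6 FPKM in sham 1, adjusted p = 0.884), and Fgf21, a fasting hormone (1.44 ± 1.59 and 1.01 ± 0.366 FPKM, adjusted p = 0.795). Ppara itself had 17.2 ± 6.42 and 12 ± 5.5 FPKM (adjusted p = 0.136). Slc16a1, which carries lactate and ketone bodies, rose from 14.7 ± 4.15 to 40.2 ± 9.03 FPKM. It was 1 of 2 rises among the 8 genes of ketone body synthesis and use, while 16.2% of all genes tested rose. The other rise was Slc16a7. The remaining 6 genes of that list were not called, and its median log2 fold change was 0.13.

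Fatty acid and triglyceride synthesis had 7 falls and 2 rises among 24 tested genes, with a median of -0.34 that was 0.04 on the TPM scale. Scd1, stearoyl-CoA desaturase, had 659, 842, 665, 1320.3 and 1723 FPKM in sham and 97.3, 84.7, 129.8 and 271 FPKM in PHx48_ETO, without overlap (log2 fold change -2.81 ± 0.51, adjusted p = 0.000154). Elovl3, a fatty acid elongase, had 440.5 to 653 FPKM in sham and 35.5 to 106 FPKM in PHx48_ETO (adjusted p = 4.22e-05), and Acacb, the acetyl-CoA carboxylase whose product inhibits carnitine palmitoyltransferase 1, went from 10.6 ± 2.82 to 2.87 ± 0.64 FPKM (adjusted p = 0.000246). The other carboxylase Acaca (adjusted p = 0.45), fatty acid synthase Fasn (41.5 ± 19.9 and 25 ± 9.81 FPKM, adjusted p = 0.119) and ATP citrate lyase Acly (45.1 ± 12.2 and 40.4 ± 8.08 FPKM, adjusted p = 0.764) did not pass. The 7 falls were 7 or 8 with 1 library left out and 8 without the 4 libraries with other tissues. The 2 rises, Fads2 and Elovl1, became 0 without sham 1 or sham 3 and 1 without sham 4, PHx48_ETO 1, PHx48_ETO 3 or PHx48_ETO 4. Exons of Elovl1 overlap those of the mitosis gene Cdc20, so the genes can share reads.

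Lipoprotein and bile acid genes fell in a large share. Of 17 tested genes of lipoprotein assembly 9 fell and 2 rose, with a median of -0.50, and on the TPM scale 6 fell and 4 rose. Apoa2, an apolipoprotein of HDL, had 9628, 13270.3, 12566, 15957 and 19057 FPKM in sham and 3162, 5326, 7129 and 9522 FPKM in PHx48_ETO (log2 fold change -1.15 ± 0.26, adjusted p = 0.00131). Its ranges came close, 9522 FPKM in PHx48_ETO 4 against 9628 FPKM in sham 1. Apoa4, of chylomicrons and VLDL, was 1 of the rises, with 126 FPKM in sham 2 against 18.5 to 27.6 FPKM in the other sham libraries and 70.3 to 186 FPKM in PHx48_ETO (adjusted p = 0.018); its log2 fold change of 1.59 was 2.52 without sham 2, and its call was lost without sham 1 or PHx48_ETO 1. The 2 rises were 0 without sham 1 or PHx48_ETO 1 and 1 without sham 3, sham 4, sham 5, PHx48_ETO 2 or PHx48_ETO 3. Of 24 tested genes of bile acid synthesis and transport (26 listed) 11 fell and 1 rose, with a median of -0.54. The falls numbered 9 to 11 with 1 library left out, and the rise, of Abcc2, was lost without sham 4, sham 5, PHx48_ETO 1 or PHx48_ETO 2. With TPM 10 fell and 4 rose. Cyp7b1, of the acidic pathway of bile acid synthesis, had 179, 239, 189.6, 181 and 237 FPKM in sham and 24.2, 45.2, 21.9 and 33.1 FPKM in PHx48_ETO (log2 fold change -2.71 ± 0.55, adjusted p = 0.000523). Cyp8b1, the sterol 12-alpha-hydroxylase, went from 148 ± 14.1 to 27.5 ± 13.5 FPKM (adjusted p = 0.0298), a call lost without PHx48_ETO 1, PHx48_ETO 2 or PHx48_ETO 3. Cyp7a1, the rate-limiting enzyme of the classical pathway, had 9.46, 12.3, 2.86, 26.5 and 7.31 FPKM in sham and 46.7, 25.5, 17.4 and 9.33 FPKM in PHx48_ETO and did not pass (log2 fold change 1.11 ± 0.84, adjusted p = 0.337). The uptake carrier Slco1a1 went from 118 ± 26.2 to 29.1 ± 8.58 FPKM (adjusted p = 0.00039). Cyp7b1 and Slco1a1 are also among the falls of the growth hormone and STAT5 list.

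Amino acid catabolism and the urea cycle had 18 falls and 3 rises among 38 tested genes, with a median of -0.60. The falls numbered 13 to 19 with 1 library left out and 16 without the 4 libraries with other tissues. The rises were 1 without any 1 library other than sham 5 and PHx48_ETO 2. On the TPM scale there were 14 falls and 6 rises. Gnmt, which disposes of excess S-adenosylmethionine, had 1159, 1459, 1158, 1383 and 1856 FPKM in sham and 417, 377, 489.7 and 641 FPKM in PHx48_ETO (log2 fold change -1.53 ± 0.20, adjusted p = 3.05e-06). Ass1, argininosuccinate synthetase of the urea cycle, went from 1115 ± 175 to 557 ± 126 FPKM and Otc, ornithine transcarbamylase, from 129 ± 44 to 61.4 ± 13.7 FPKM, both without overlap (adjusted p = 0.00126 and 0.000832). Hal, which breaks down histidine, fell by 1.40 ± 0.21 on the log2 scale. Of 13 genes of gluconeogenesis and glycogen 6 fell and none rose, and the falls were 2 without PHx48_ETO 2 and 3 without PHx48_ETO 3. They were 4 with library totals and 2 on the TPM scale. Pck1, the gluconeogenic carboxykinase, had 691, 665, 622, 214 and 390.3 FPKM in sham and 225, 146, 184 and 296 FPKM in PHx48_ETO (adjusted p = 0.0198, not called without PHx48_ETO 2 or PHx48_ETO 3). Among 19 tested glycolysis genes 4 rose and 3 fell. These shares, 21.1% and 15.8%, were near the 16.2% and 13.3% of all genes tested. With TPM 5 rose and 1 fell. Ldha, lactate dehydrogenase A, rose from 263 ± 30.6 to 564 ± 104 FPKM (log2 fold change 1.11 ± 0.15, adjusted p = 3.69e-06), whereas the liver pyruvate kinase Pklr fell by 1.94 on the log2 scale. The 4 glycolytic rises became 2 without sham 4, sham 5 or PHx48_ETO 3.

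Nuclear genes of the respiratory chain fell in 13 of 34 cases and rose in none, with a median of -0.32. The falls numbered 9 to 20 with 1 library left out, with 20 without PHx48_ETO 4, and 12 without the 4 libraries with other tissues. On the TPM scale, where the median of all genes was 0.27, none fell and 2 rose. Ndufb8, a subunit of complex I, fell by 0.50 and Ndufv1, another, by 0.42 on the log2 scale, each without overlap.

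Drug-metabolising enzymes changed both ways. Of 33 tested cytochrome P450 genes (37 listed) 10 fell (30.3%, against 13.3% of all genes tested). The 7 that rose were 21.2%, near the 16.2% of all genes tested. On the TPM scale 7 fell and 10 rose, while of all 12376 genes 657 fell and 4267 rose. Cyp2f2, a periportal cytochrome, had 381, 611, 606, 711 and 719 FPKM in sham and 163, 184, 169 and 256 FPKM in PHx48_ETO (log2 fold change -1.63 ± 0.24, adjusted p = 1.58e-05); its exons overlap those of Gm15883. Cyp2e1, a pericentral cytochrome, went from 2339.6 ± 311 to 858 ± 299.7 FPKM without overlap (adjusted p = 0.00145). Of 25 tested targets of NRF2, the factor of the oxidant response, 12 rose and 2 fell, with a median of 0.63; the rises numbered 8 to 12 with 1 library left out and 8 without the 4 libraries with other tissues, and the falls were 1 without PHx48_ETO 1. Gstm3, a glutathione transferase, had 91.3, 108, 58.4, 59.2 and 38.8 FPKM in sham and 575, 494, 587 and 826 FPKM in PHx48_ETO (log2 fold change 3.12 ± 0.51, adjusted p = 5.56e-05). Nqo1, a quinone reductase, went from 3.44 ± 1.11 to 17.6 ± 4.28 FPKM and Gsta1, another transferase, from 3.67 ± 4.58 to 56.8 ± 14.5 FPKM, both without overlap (adjusted p = 0.000128 and 0.004). Gst genes of a family can share reads. Of 21 tested genes of the ATF4 and integrated stress response 4 rose (a share near the 16.2% of all genes) and 2 fell (Chac1 and Nupr1), with a median of -0.05 that was 0.15 with library totals and 0.24 on the TPM scale; the falls were 0 without PHx48_ETO 3, 1 without sham 2, sham 3 or PHx48_ETO 2, and 5 without sham 5. Gdf15, a stress hormone of the ATF4 and p53 lists, went from 2.76 ± 0.786 to 18.4 ± 5.75 FPKM (adjusted p = 6.55e-05). Atf3, a stress factor, reached 7.24, 5.65 and 13.2 FPKM in PHx48_ETO 1 to 3 and 1.16 FPKM in PHx48_ETO 4, within the sham range of 0.51 to 1.45 FPKM (log2 fold change 3.07, adjusted p = 0.000355).

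Markers of other liver cells were compared as well. Of 14 tested markers of sinusoidal endothelial cells 9 fell (64.3%, against 13.3% of all genes tested) and none rose, with a median of -0.74. Their summed level was 57.1 to 74.9 FPKM in sham and 30, 25.5, 34.4 and 65.4 FPKM in PHx48_ETO 1 to 4. PHx48_ETO 4 lay within the sham range and the other 3 below it. The 9 falls became 5 without PHx48_ETO 1, 4 without PHx48_ETO 2 or PHx48_ETO 3, and 3 without the 4 libraries with other tissues. Kdr, the VEGF receptor of these cells, had 5.24, 3.6, 2.82, 3.11 and 2.53 FPKM in sham and 1.4, 0.994, 1.48 and 2.83 FPKM in PHx48_ETO, with overlap through PHx48_ETO 4 (log2 fold change -1.05 ± 0.26, adjusted p = 0.00344). Of 12 Kupffer cell markers 1 rose (8.33%, against 16.2% of all genes tested) and none fell, with a median of -0.50. Without PHx48_ETO 4, 7 fell. The marker that rose was the scavenger receptor Marco, from 2.38 ± 0.957 to 10.6 ± 1.51 FPKM without overlap (log2 fold change 2.16 ± 0.52, adjusted p = 0.00254). Of 25 tested growth signals (35 listed) 2 rose (8.0%, against 16.2% of all genes tested) and 5 fell (20.0%, against 13.3%). The rises numbered 1 to 3 and the falls 3 to 5 with 1 library left out. Hgf, the hepatocyte growth factor that stellate cells secrete, was 1 of the 2 rises. Its level was 0.518, 0.403, 0.373, 0.623 and 0.562 FPKM in sham and 1.14, 0.978, 1.1 and 0.652 FPKM in PHx48_ETO (log2 fold change 0.98 ± 0.17, adjusted p = 0.000132). Egfr, the receptor of epidermal growth factor, went from 75.7 ± 24.7 to 33.6 ± 9.79 FPKM (adjusted p = 0.0166), a call lost without PHx48_ETO 3. Of 27 tested interferon response genes 6 fell (22.2%, against 13.3% of all genes tested) and none rose. The falls numbered 4 to 8 when 1 library was left out and 8 without the 4 libraries that held other tissues. Irf7, a factor of that response, fell by 1.22 on the log2 scale. The summed B cell markers were 321 FPKM in sham 2 against 5.39 to 15 FPKM in the other 8 libraries, and their part in the interferon list was not tested.

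The tests that follow share the PHx48_ETO libraries with the comparison above and are not independent of it. PHx48_ETO was tested against PHx48 to see where it differs from resected liver without etomoxir at the same time. Few genes differed: 26 of 12376 were called (0.21%), 16 higher in PHx48_ETO (0.129%) and 10 lower (0.0808%), with 1003 at an unadjusted p under 0.05. No gene of the mitosis or DNA replication lists was called by edgeR or DESeq2, and at an unadjusted p under 0.05 there was 1 of 49 and 0 of 37. Ccnb1, for example, had 17.3 ± 7.27 FPKM in PHx48_ETO and 20 ± 6.65 FPKM in PHx48 (SD, n = 4 and 7; log2 fold change -0.22 ± 0.57), a wide SE that does not show that the groups are alike. The called genes rest on few libraries. Without PHx48_ETO 3 only Retsat was called, and without PHx48_ETO 1 there were 3 calls, while DESeq2 called all 26 and 67 in total.

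Of the 16 genes higher with etomoxir, 4 belong to the carnitine and mitochondrial oxidation list and 5 to the PPARA targets. Cyp4a14 had 58.3 ± 33.5 FPKM in PHx48 (lowest 21, median 57.1, highest 122) and 252 to 596 FPKM in PHx48_ETO (log2 fold change 2.96 ± 0.62, adjusted p = 0.037), without overlap. Ehhadh had 83.7 ± 23.7 FPKM in PHx48 against 247 ± 52.8 FPKM (log2 fold change 1.56 ± 0.32, adjusted p = 0.0305), and Acadm 97 ± 7.37 FPKM against 149.9 ± 18.5 FPKM (log2 fold change 0.62 ± 0.12, adjusted p = 0.0302). Slc25a20 (log2 fold change 0.56 ± 0.11, adjusted p = 0.0305) and Slc22a5, the carnitine importer (4.25 ± 0.76 and 7.97 ± 1.7 FPKM, log2 fold change 0.91 ± 0.17, adjusted p = 0.0231), were called against PHx48 and not against sham. Retsat, retinol saturase, had 25.9 to 46.1 FPKM in PHx48, 81.2, 67.3, 85.2 and 102 FPKM in PHx48_ETO and 70.3 ± 21.6 FPKM (SD) in sham (log2 fold change against PHx48 1.23 ± 0.19, adjusted p = 0.00795). It was called in all 11 fits that left out 1 of the 11 libraries compared, and Aldh3a2, which oxidises fatty aldehydes, in 9 (log2 fold change 1.03 ± 0.19, adjusted p = 0.0165). The other calls named here were lost in most of these fits, apart from Slc22a5 (called in 8 of 11): Cyp4a14 was called in 1, Ehhadh in 2, Slc25a20 in 3 and Acadm in 4.

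The genes lower with etomoxir include 3 of fatty acid synthesis. Scd1 had 754 ± 326 FPKM in PHx48 (lowest 315, median 724, highest 1346) and 84.7 to 271 FPKM in PHx48_ETO, without overlap (log2 fold change -2.37 ± 0.48, adjusted p = 0.0302). Acly had 55.4 to 288 FPKM in PHx48 and 42.5, 29.1, 48.3 and 41.7 FPKM in PHx48_ETO (log2 fold change -1.58 ± 0.31, adjusted p = 0.0302). Acacb fell as well against PHx48, but with overlap (log2 fold change -1.76 ± 0.34, adjusted p = 0.0237). Fasn did not pass (70.5 ± 33.6 and 25 ± 9.81 FPKM, adjusted p = 0.0589). Ass1 had 1251 ± 301 FPKM in PHx48 and 557 ± 126 FPKM in PHx48_ETO (log2 fold change -1.16 ± 0.21, adjusted p = 0.0154). The predicted gene Gm5424 moved much like it (log2 fold change -1.09). Whether Gm5424 and Ass1 share reads was not tested, so these calls may not be independent. Chrna4, a nicotinic receptor subunit, ranged from 2.65 to 40.8 FPKM in PHx48 and had 0.769, 0.815, 1.88 and 1.89 FPKM in PHx48_ETO, near the sham levels of 0.739 to 1.87 FPKM (log2 fold change against PHx48 -3.45 ± 0.57, adjusted p = 0.00932). It was called in 9 of the 11 fits with 1 library left out, Ass1 in 8, Acly in 5 and Scd1 in 3.

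**Figure D5:**
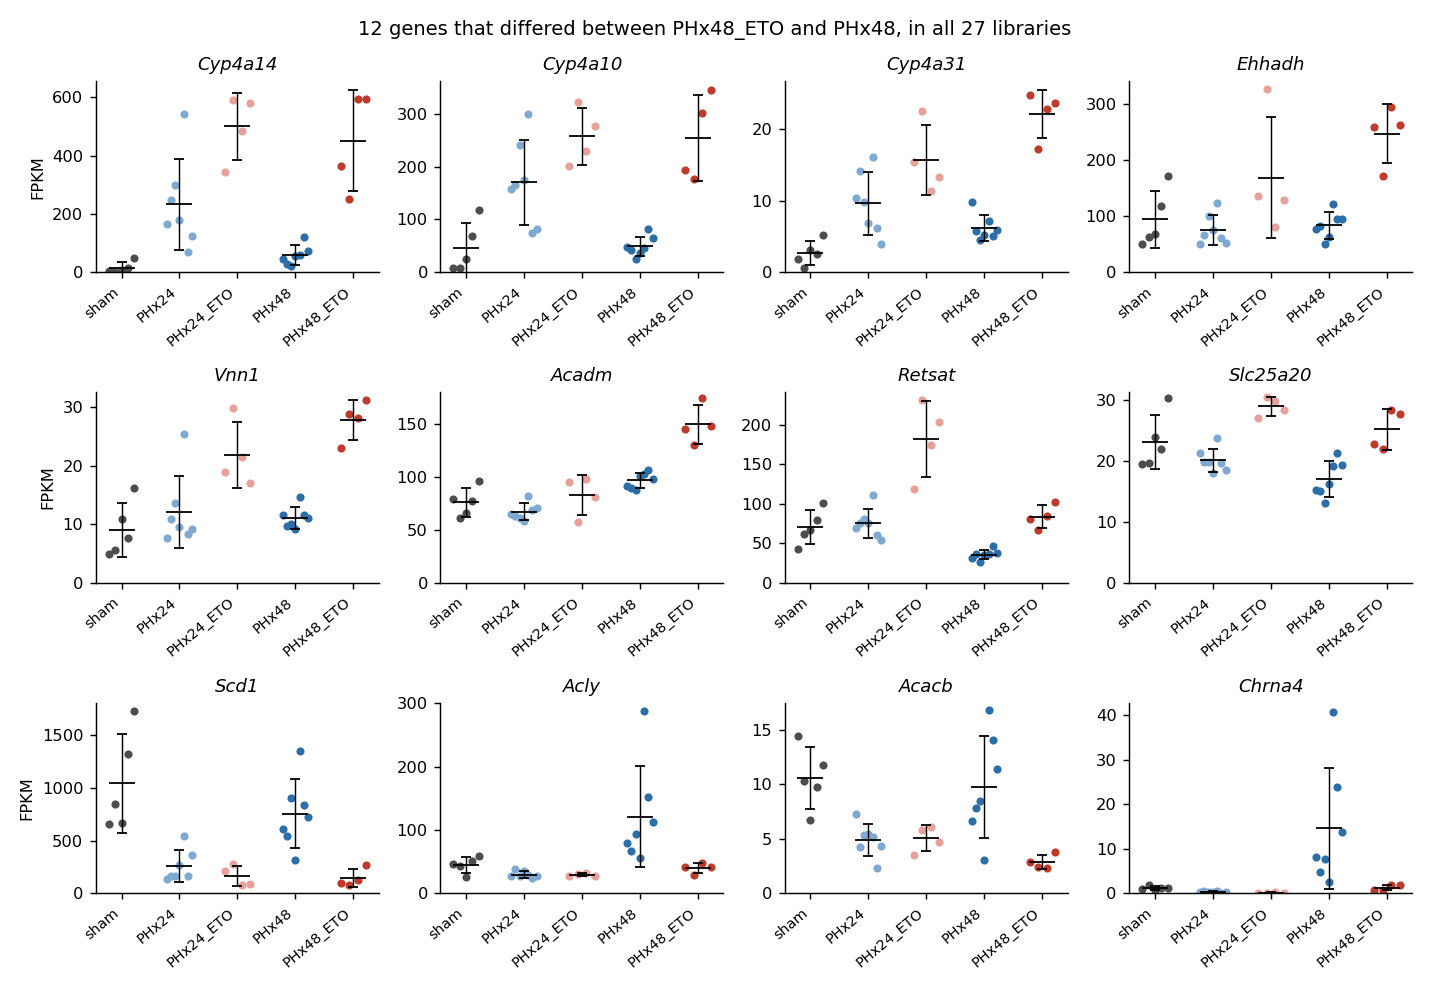
FPKM of 12 genes called between PHx48_ETO and PHx48, in each of the 27 libraries by group, with the mean (bar) and 1 SD. Cyp4a14 is at 252 to 596 FPKM in PHx48_ETO and at most 122 FPKM in PHx48, and Scd1 at 84.7 to 271 FPKM against at least 315 FPKM.

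Against PHx24_ETO, 1862 genes were called (15.0%), 905 higher in PHx48_ETO (7.31%) and 957 lower (7.73%). Of the 49 tested mitosis genes 46 were higher at 48 h, with Ccnb1 at 0.532 ± 0.922 FPKM in PHx24_ETO and 17.3 ± 7.27 FPKM in PHx48_ETO (log2 fold change 4.99 ± 0.79, adjusted p = 0.000137). Of 37 DNA replication genes 1 was higher and none was lower; Mcm5, with 1.79 to 32.8 FPKM in PHx24_ETO and 8.38 to 15.1 FPKM in PHx48_ETO, did not pass (adjusted p = 0.815). Acute phase genes were lower at 48 h in 24 of 30 cases and unfolded protein response genes in 16 of 23. Lcn2 had 891 ± 226 FPKM in PHx24_ETO and 157 ± 69 FPKM in PHx48_ETO (log2 fold change -2.49 ± 0.39, adjusted p = 0.000111). NRF2 targets were higher in 10 of 25 cases, among them Gstm3 (107 ± 75.7 FPKM in PHx24_ETO, adjusted p = 0.00222). The groups differ in time and in the second etomoxir dose, which cannot be told apart.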

How the data were processed

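Polyadenylated RNA of mouse liver was sequenced, with libraries made by a kit that does not mark strand, per the labels' protocols. Per the submitters' processing notes, CASAVA 1.8, DESeq2 1.20.0, featureCounts 1.5.0-p3, HISAT2 2.0.5 and fastp were used, with build GRCm38/mm10; the strand setting of the counting is not given in the sources used here. In the deposited table are raw read counts per gene and FPKM values, the latter being what the authors scaled by library sizes other than the plain totals. The raw counts were tested by the quasi-likelihood test of edgeR 4.0.16 (R 4.3.3) with TMM factors in 1 fit of all 27 libraries in 5 groups. Genes that reached 1 FPKM in at least 4 libraries were kept, p-values were adjusted by Benjamini-Hochberg over the 12376 genes, and the SE is the log2 fold change over the root of the F statistic. The biological coefficient of variation was 0.266. Alternatives used DESeq2 1.42.0, limma 3.58.1 on log2(FPKM + 1), log2(FPKM + 0.1) or log2(TPM + 1), other scaling and filters, 2 groups only, a replicate block, and libraries left out.

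The members and the gene lists were chosen with earlier results of these data known. Lists share members, so their counts are not independent. For example, Cyp7b1, Slco1a1, Elovl3 and Cyp2d9 count in the growth hormone and STAT5 list and in another. C3 counts in both the acute phase and the complement list. Named genes are the 12 protein-coding genes with the largest rise and the 12 with the largest fall among those called, at a mean of at least 5 FPKM in the higher group and without overlap; the 3 of lowest adjusted p in each pathway list; the 10 with the largest gain and the 10 with the largest loss of mean FPKM; the 5 strongest each way against PHx48 and PHx24_ETO; and Cpt1a, Cpt1b, Cpt2, Slc25a20, Alb, Ppara, Fgf21, Mki67, Cdkn1a, Ccnd1 and Myc. Chosen after their values were seen were Acaca, Acacb, Acot2, Acot3, Acsl1, Aldh3a2, Apoa4, Cdk1, Cyp2a4, Cyp2b9, Cyp7a1, Cyp7b1, Cyp8b1, Egfr, Fads2, Fasn, Foxm1, Ghr, Gm5424, Gsta1, Hamp, Igf1, Kdr, Krt18, Marco, Mcm10, Mcm6, Otc, Pdk4, Pttg1, Rb1, Retsat, Slc22a5, Stmn1, the list members named only as exceptions or list members (Abcc2, Apoh, Chac1, Elovl1, Nupr1, Rbp4, Serpina1c, Slc27a1, Ucp2), the genes shown by promoter and the transcription factors of the closing section. The list member Slc16a7 was also named after its call was seen. Exons of Acot3, C2, Cdkn1a, Chaf1a, Gins2, Irf7, Pklr and Rb1 overlap those of another tested gene, so their reads may be shared.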

Additional observations from a re-analysis of the deposited data

Results flagged for a closer look

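In 21 of 234 groups of libraries examined (1 gene in 1 group each), the highest or lowest library stood apart from the others by a gap that was a large part of the group's range. The cut-offs give about 1 in 20 for independent, normally distributed values. That rate need not hold for FPKM of genes that vary together, so the 21 are not an excess that was tested. Sham 4 was the highest in 5 of them, all mitosis genes: Ccnb1 at 0.549 FPKM (next sham library 0.217), Ccnb2 at 1.66 (1.03), Cdc20 at 4.25 (1.14), Cdk1 at 1.08 (0.39) and Hmmr at 0.511 (0.101). Each of these values lay far under the lowest PHx48_ETO library. Sham 2, the library with pancreas and cholangiocyte markers, was the highest in Apoa4 (126 FPKM, next 27.6), Krt8 (254 FPKM, next 167) and Gsta1 (11.6 FPKM, next 3.55). Sham 1, the library with muscle and adipocyte markers, was the highest in Pdk4 (62.6 FPKM, next 5.38). Sham 3 was the highest in Saa1 (104 FPKM, next 33.8) and Marco (4.03 FPKM, next 2.32), and sham 5 in Acsl1 (145 FPKM, next 86.8) and Ppara (28.7 FPKM, next 14.8).

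Among PHx48_ETO libraries, number 4 was the highest in Serpina12 (4.08 FPKM, next 2.02) and Pitx3 (2.05 FPKM, next 0.932), on the side of sham in both. Number 3 was the highest in Lcn2 (259.8 FPKM, next 134), Mki67 (17.4 FPKM, next 12.1) and Fasn (39.7 FPKM, next 21), and the lowest in Rb1 (0.785 FPKM, next 1.19). Number 1 was the highest in Slc22a5 (10.5 FPKM, next 7.24) and the lowest in F12 (178 FPKM, next 207).

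The tests of the difference between groups called 26 genes between PHx48_ETO and PHx48 and 1862 between PHx48_ETO and PHx24_ETO. Below the filter on low values, 40 genes had reads in all 4 PHx48_ETO libraries and none in the 5 sham libraries. Vxn had the highest level among the protein-coding ones, with 17 to 90 reads and a mean of 0.913 FPKM in PHx48_ETO.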

How the results depend on the processing

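No called change of a named gene reversed its direction under the alternatives run. Against sham, 3409 genes were called higher and 909 lower with library totals, 4267 and 657 with limma on log2(TPM + 1), and 1330 higher at an FPKM of at least 5; the other alternatives stayed within 1.5 times. With 1 library left out, 2760 to 3815 genes were called, 1544 to 2074 higher and 1200 to 1809 lower. Against PHx48 the calls numbered 67 with DESeq2 (33 higher, 34 lower), 11 without the FPKM filter (6 and 5) and 1 to 25 with 1 library left out (1 to 11 higher, 0 to 14 lower); 25 were higher with 2 groups only and 18 lower on the TPM scale. Against PHx24_ETO they numbered 620 with 2 groups only (336 and 284), 1376 higher and 474 lower with library totals, 444 lower on the TPM scale, and 1319 to 2256 with 1 library left out (663 to 1142 higher, 643 to 1114 lower). The cause of these moves was not tested. Deviations of same-numbered sham and PHx48_ETO libraries from their group means correlated at 0.1204, 0.0395, -0.1246 and 0.0096. These 4 values cannot settle whether the numbers pair the samples. With the replicate block 2080 genes were higher and 1710 lower against sham, and 44 were called against PHx48 (32 higher), in place of 26. Depth limits genes under 1 FPKM, which were not tested, and small changes among 4 and 5 libraries.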

Other observations

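Transcription factors, taken from the family column of the deposited table, were called both ways: of 651 tested, 77 rose (11.8%, against 16.2%) and 75 fell (11.5%, against 13.3%); the difference in shares was not tested. Mybl1, a factor of the Myb family, had 0.0939 ± 0.0621 FPKM in sham and 4.64 ± 2.51 FPKM in PHx48_ETO (SD, n = 5 and 4; log2 fold change 5.63 ± 0.50, adjusted p = 1.38e-08). Mxd3, a partner of Max, rose by 4.58 ± 0.59 on the log2 scale and E2f2, an E2F factor of the G1/S list, by 2.15 ± 0.38, both without overlap. Among the falls, Hopx, a homeodomain protein without DNA binding, went from 30.1 ± 7.41 to 10.8 ± 3.11 FPKM (adjusted p = 1.51e-06). Klf1, the factor of red cell genes, went from 2.66 ± 0.715 to 0.71 ± 0.297 FPKM (adjusted p = 3.18e-05).

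Calls by kind of transcript are given as counts. Of all 12376 genes tested, 2004 rose (16.2%) and 1651 fell (13.3%), and differences from these shares were not tested. Of 10586 protein-coding genes tested 1872 rose and 1469 fell. Of 245 lincRNA genes 28 rose and 47 fell, of 233 antisense genes 19 rose and 38 fell, and of 572 processed pseudogenes 47 rose and 18 fell. The libraries do not mark strand, so reads of an antisense gene and of its partner cannot be told apart.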
